A study of Mus musculus with 9 samples.

Results

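The nuclear-encoded subunits of oxidative phosphorylation were followed in an RNA immunoprecipitation (RIP) experiment with an antibody against CELF2, a protein that binds RNA. Members were chosen by symbol: *Ndufa*, *Ndufb*, *Ndufc*, *Ndufs* and *Ndufv* genes for complex I, *Sdha* to *Sdhd* for complex II, *Cyc1* and *Uqcr* genes for complex III, *Cox4i* to *Cox8* genes for complex IV and *Atp5* genes for complex V. The rule gave 89 genes, set against 21250 protein-coding genes with a row in the table, and 83 of them had enough counts to be tested, against 15263 genes tested in all. By complex, 39 of 41, 4 of 4, 9 of 9, 14 of 18 and 17 of 17 members were tested for complexes I to V. *Ndufb1* and *Ndufb4c* had no row in the table. *Cox6a2*, *Cox7b2*, *Cox8b* and *Cox8c* were under the filter, and *Cox8c* had no count in any library.

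All 9 libraries came from the cytoplasmic fraction of cortices of knockin (KI) mice, heterozygous for *Celf2* p.R493H, at postnatal day 0. For the 3 CELF2 RIP libraries the fraction was kept for 3 hours with a rabbit antibody against CELF2, at 10 µg, and for the 3 IgG RIP libraries with the same amount of normal rabbit IgG. The 3 input libraries came from an aliquot kept before the antibody was added. All groups share the KI allele and there is no wild-type group, so every comparison is between RNA fractions of one genotype. The fraction comes from a whole tissue of neurons, glia, progenitors and vascular cells. For the level of an mRNA in it, fewer cells of a type and less RNA per cell cannot be told apart. Input and RIPs were made from that fraction, so this concerns levels and not differences between input and RIP. The replicates are described in the labels as biological.

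Oxidative phosphorylation is the last stage of respiration, at the inner membrane of the mitochondrion. Complex I takes electrons from NADH and complex II from succinate, complex III passes them to cytochrome c, complex IV passes them to oxygen, and complex V, the ATP synthase, uses the proton gradient that complexes I, III and IV build. All but a few subunits are encoded in the nucleus, translated in the cytoplasm and imported, and neurons depend strongly on this ATP supply. The few subunits encoded in mitochondrial DNA had 0 matched rows, so the complexes are described here by their nuclear-encoded part.

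Counts assigned to protein-coding genes ranged from 13519246 to 16836302 in CELF2 RIP, from 9344255 to 14960822 in IgG RIP and from 55229664 to 78483566 in input. The rows matched to a gene held between 56.5% and 78.9% of the counts in IgG RIP and between 87.4% and 90.7% in the other libraries. Markers of excitatory cortical neurons were present throughout: all 8 listed genes were tested, none was at 0, and their summed level was 2034 to 2844 CPM (counts scaled to a common library size) in CELF2 RIP, 1058 to 1235 in IgG RIP and 1158 to 1368 in input. All 6 erythroid markers were tested, led by the globin genes, and none was at 0. Their summed level was 93.9 to 96.5 CPM in CELF2 RIP, 370 to 586 in IgG RIP and 879 to 1136 in input. The summed subunits below had the same order of conditions. However, 2 of the 6 erythroid markers had a higher level in IgG RIP than in input, and 0 were called higher in the test described below. The part of these markers in the result was not tested. In the same 3 groups, inhibitory neuron markers summed to 447 to 609, 258 to 318 and 348 to 359 CPM. Radial glia markers summed to 453 to 906, 537 to 631 and 913 to 1125 CPM. Microglia markers held 91.5 to 125, 53.6 to 72.1 and 117 to 152 CPM, and endothelial markers 158 to 229, 147 to 325 and 198 to 309.

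As a group, the subunit mRNAs were scarcest in CELF2 RIP. The summed level of the 83 tested members, in CPM on the scaled library size, was 2195 ± 459 in CELF2 RIP, 3424 ± 524 in IgG RIP and 5463 ± 130 in input (SD, n = 3 each). The CELF2 RIP libraries thus held 64.1% of the IgG RIP level and 40.2% of the input level. Replicate 1 of CELF2 RIP, at 2725 CPM, lay above the other two and still below the lowest IgG RIP library, at 2984. Expressed as a share of all protein-coding counts, the subunits made up 0.148% to 0.239% of CELF2 RIP, 0.319% to 0.420% of IgG RIP and 0.616% to 0.626% of input, so the 3 conditions did not overlap on either scale.

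**Figure D1:**
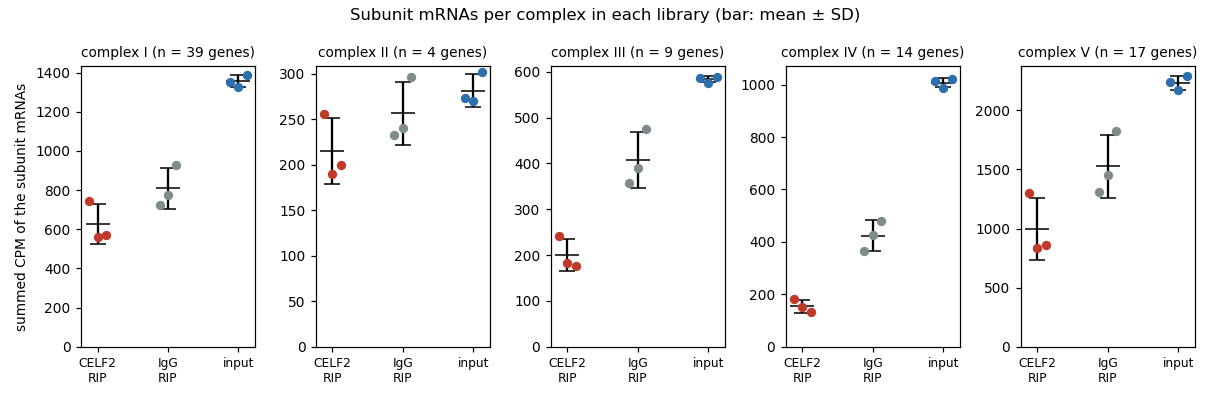
Summed CPM of the tested subunit mRNAs of complexes I to V (one panel each, linear axis from 0) in the 3 CELF2 RIP, 3 IgG RIP and 3 input libraries; points are libraries and bars are mean ± SD. For complex IV the mean went from 1008 in input to 424 in IgG RIP and 154 in CELF2 RIP. For complex II the means were 281, 256 and 215, and the CELF2 and IgG RIP libraries overlapped.

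The test was run gene by gene across all 15263 genes, and a gene was called when its change was at least 2-fold at a false discovery rate (FDR, the Benjamini-Hochberg adjusted p of edgeR's quasi-likelihood test) under 0.01. Against IgG RIP, 54 of the 83 members were lower in CELF2 RIP, where 13.5% of all tested genes were, and 3 were higher, where 13.4% of all genes were. Against input, 64 members were lower (15.5% of all genes) and 0 were higher (14.6% of all genes). In that direction, 4 members had an unadjusted p under 0.05, and DESeq2's Wald test also called 0 of them. In all, 53 members were lower than both controls, a call made for 9.52% of all genes, and 0 were higher than both, a call made for 7.58% (DESeq2 0, and 2 members at an unadjusted p under 0.05 in both comparisons). In CPM, all 3 CELF2 RIP libraries lay below all 6 controls for 62 members (19.9% of all genes). They lay above all 6 for 2 members (25.2% of all genes).

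The subunit mRNAs were also scarce in the IgG RIP itself. Compared with input, 45 members were lower in IgG RIP, where 5.01% of all genes were, and 0 were higher, where 6.79% were (DESeq2 0, and 3 members at an unadjusted p under 0.05). The 3 IgG RIP libraries lay below all 3 inputs for 68 members (29.4% of all genes) and above them for 3 (27.1%). The median log2 fold change over the members was -1.11 in IgG RIP over input, -2.65 in CELF2 RIP over input and -1.59 in CELF2 RIP over IgG RIP, against medians of -0.0031, 0.19 and -0.06 over all tested genes. These comparisons share libraries pairwise and are not independent of each other. The same 35 members were called lower in all 3 comparisons, and a further 18 were lower in CELF2 RIP than in both controls without a call between the controls.

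**Figure D2:**
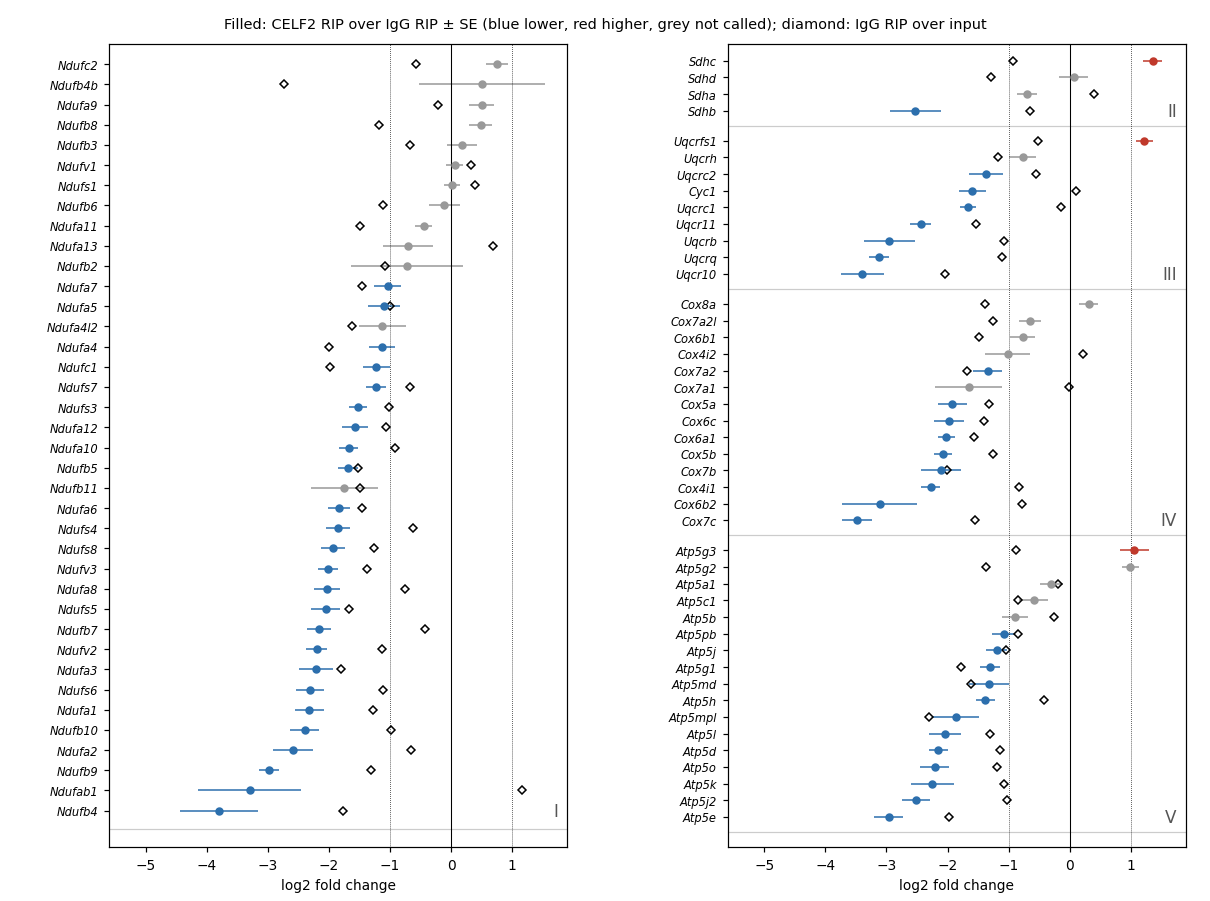
Log2 fold change of CELF2 RIP over IgG RIP with its SE (filled circles, blue for called lower, red for called higher, grey for not called) and of IgG RIP over input (open diamonds) for the tested members (1 is not shown), by complex; dotted lines mark 2-fold. Over all 83 tested members, 69 values of CELF2 RIP over IgG RIP and 76 of IgG RIP over input were below 0, and the red points are *Sdhc*, *Uqcrfs1* and *Atp5g3*.

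The members' promoters, which the choice by symbol did not use, were searched for 3 short motifs. NRF1, ETS factors such as GABP, and YY1 are known regulators of respiratory chain genes. RefSeq promoter sequences on GRCm38.p6, from 250 bases before to 50 bases after the start, matched 71 members. The NRF1 core, the 10 letters in capitals in the windows that follow with any base at the sixth place, read on both strands, stood in 17 of them (23.9%), against 7.17% of 17491 protein-coding promoters. The ETS core CCGGAAG stood in 23.9% of the members' promoters against 12.9% of all, and the YY1 core AAGATGGCG in 9.86% against 2.14%. At least 1 of the 3 cores was present in 49.3% of the members' promoters and in 20% of all, so about as many members' promoters lacked all 3 as held one. No test of these shares was made.

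The NRF1 core stood in 25% of the 44 matched promoters of members lower than both controls and in 25% of the 24 of the other tested members. The ETS core stood in 27.3% of the former and 20.8% of the latter, the YY1 core in 13.6% (6 promoters) and 4.17% (1 promoter), and at least 1 of the 3 in 54.5% and 45.8%. These differences were not tested. The following 41-base windows, each 5′ to 3′ on the strand of its gene (GRCm38.p6) with the core in capitals, are shown as examples of the core in members with different outcomes in the RIP. *Ndufb4* and *Cox6a1* were lower than both controls (-3.80 and -2.02 relative to IgG RIP on the log2 scale), and *Sdha*, *Sdhd* and *Atp5g2* were not called against IgG RIP (-0.69, 0.06 and 0.99).
*Ndufb4*, chr16:37654422-37654462, minus strand: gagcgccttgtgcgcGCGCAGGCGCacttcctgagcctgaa
*Cox6a1*, chr5:115349095-115349135, minus strand: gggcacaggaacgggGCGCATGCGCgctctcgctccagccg
*Sdha*, chr13:74350270-74350310, minus strand: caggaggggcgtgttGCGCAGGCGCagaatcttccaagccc
*Sdhd*, chr9:50603903-50603943, minus strand: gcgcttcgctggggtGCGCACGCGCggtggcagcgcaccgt
*Atp5g2*, chr15:102671064-102671104, minus strand: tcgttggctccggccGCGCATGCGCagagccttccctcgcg
A match of letters is a description of the promoter, not evidence that a factor was bound, and these RNA libraries do not measure binding to DNA.

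Complex I, the NADH dehydrogenase, had 25 of 39 tested subunits lower in CELF2 RIP than in IgG RIP, 28 lower than in input and 24 lower than in both. Its median log2 fold change over IgG RIP was -1.58. The lowest member was *Ndufb4* (chr16:37647602-37654368 on GRCm38.p6, as for all positions here), an accessory subunit of the membrane arm. Its level was 0.480, 1.16 and 0 CPM in the 3 CELF2 RIP libraries, 5.45, 4.96 and 13.2 CPM in IgG RIP and 27.4, 25.9 and 28.0 CPM in input. The 3 groups did not overlap, and the log2 fold change was -3.80 ± 0.64 (SE, FDR = 0.000616) over IgG RIP and -5.57 ± 0.64 over input. Its call held with each library left out, but the value over IgG RIP went to -4.96 without CELF2 RIP replicate 2 and to -3.20 without IgG RIP replicate 3, and the value over input to -6.73 without CELF2 RIP replicate 2. *Ndufb4* has a near-identical copy in the table, *Ndufb4b*, and estimated counts may be split between them, so its level is uncertain. *Ndufb4b* itself was at 0.720, 0.924 and 1.16 CPM in CELF2 RIP, 1.82, 0 and 0 CPM in IgG RIP and 5.17, 3.20 and 4.85 CPM in input. Its CELF2 RIP libraries lay within the range of IgG RIP and below input, and it was not called.

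The core subunits of complex I carry the flavin, the iron-sulfur clusters and the quinone site, and those described here were divided. *Ndufs3*, *Ndufs7*, *Ndufs8* and *Ndufv2* were lower than both controls, with log2 values of -1.53, -1.23, -1.94 and -2.20 for CELF2 RIP over IgG RIP. *Ndufs1* and *Ndufv1* were not called in any comparison. *Ndufs1*, the large subunit with several iron-sulfur clusters, was at 89.4, 74.6 and 81.2 CPM in CELF2 RIP, 74.0, 71.6 and 96.9 CPM in IgG RIP and 60.9, 64.4 and 59.1 CPM in input. The CELF2 and IgG RIP libraries overlapped, and both lay above input on this scale. With libraries scaled by total counts alone, *Ndufs1* was at -0.045 for CELF2 RIP over input on the log2 scale. *Ndufv1*, which binds NADH and the flavin, was at 135, 94.5 and 112 CPM in CELF2 RIP against 97.8, 104 and 127 in IgG RIP. *Ndufv2*, its partner in the same module, was at 8.16, 5.78 and 5.80 CPM against 26.7, 29.1 and 35. The difference between these 2 genes was not tested.

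Among the 32 tested accessory members of complex I, 21 were called lower in CELF2 RIP than in IgG RIP. No member of complex I was called higher by edgeR or DESeq2, although 4 had an unadjusted p under 0.05 in that direction. Apart from *Ndufb4* and *Ndufab1*, the called accessory subunits ran on the log2 scale from *Ndufa7* (-1.04) to *Ndufb9* (-2.98), and included *Ndufs4* (-1.85) and *Ndufs6* (-2.32), which are near the NADH module, and *Ndufa10* (-1.68) and *Ndufb10* (-2.40) of the membrane arm. The highest was *Ndufc2*, an accessory subunit of the membrane arm, at 89.1, 69.7 and 62.9 CPM in CELF2 RIP, 38.0, 38.8 and 54.7 CPM in IgG RIP and 62.2, 68.9 and 64.7 CPM in input. Its CELF2 RIP libraries lay above every IgG RIP library and overlapped input. The change of 0.75 ± 0.18 relative to IgG RIP on the log2 scale (FDR = 0.00429) was under the 2-fold limit, so *Ndufc2* was not called. *Ndufa9*, *Ndufb2*, *Ndufb3*, *Ndufb4b* and *Ndufa13* were not called in any comparison either. *Ndufab1*, the acyl carrier protein that is bound to complex I, was called lower than IgG RIP only (-3.30 ± 0.85, FDR = 0.0074), but from 0, 4 and 2 counts in CELF2 RIP, and the value is uncertain.

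*Ndufa4* keeps the name of complex I but is now counted as a subunit of complex IV, and *Ndufa4l2* is its relative induced in low oxygen. *Ndufa4* was at 11.5, 8.47 and 5.80 CPM in CELF2 RIP, 17.2, 21.2 and 18.5 CPM in IgG RIP and 71.9, 76.1 and 79.2 CPM in input. It was lower than both controls (-1.14 ± 0.22 on the log2 scale relative to IgG RIP, FDR = 0.00126), although without CELF2 RIP replicate 3 it was not called against IgG RIP (-0.92). *Ndufa4l2*, at 0.784 ± 0.363, 1.71 ± 0.493 and 5.32 ± 0.481 CPM (mean ± SD, n = 3) in CELF2 RIP, IgG RIP and input, was called lower than input and not lower than IgG RIP, where it was called without CELF2 RIP replicate 1 (-1.57) and with libraries scaled by total counts alone (-1.48). With this pair moved to complex IV, 24 of 37 tested members of complex I and 10 of 16 of complex IV were lower than IgG RIP.

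Complex II, the succinate dehydrogenase, has no subunit encoded in mitochondrial DNA, and its 4 subunits behaved in different ways. *Sdhb*, the iron-sulfur subunit (chr4:140961271-140979198), was at 3.68, 5.85 and 2.59 CPM in CELF2 RIP, 15.1, 18.4 and 36.6 CPM in IgG RIP and 27.0, 31.6 and 51.4 CPM in input. All CELF2 RIP libraries were below all controls, while IgG RIP and input overlapped, and the log2 fold change was -2.52 ± 0.42 over IgG RIP (FDR = 0.000569) and -3.17 ± 0.42 over input. *Sdhc* (chr1:171129157-171150640), an anchor subunit in the membrane, went the other way. It was at 84.1, 81.2 and 67.3 CPM in CELF2 RIP, 25.1, 29.6 and 36.2 CPM in IgG RIP and 56.8, 58.1 and 57.8 CPM in input. On this scale every CELF2 RIP library was above every control. *Sdhc* was higher than IgG RIP by 1.36 ± 0.15 on the log2 scale (FDR = 4.77e-05). The change of 0.43 ± 0.15 over input (FDR = 0.0272) was not called. With libraries scaled by total counts alone *Sdhc* was at -0.031 over input, so its place above input depended on the scaling.

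The other two genes of complex II differed again. *Sdha*, the flavoprotein that oxidizes succinate, was at 141, 86.5 and 112 CPM in CELF2 RIP, 177, 175 and 197 CPM in IgG RIP and 142, 133 and 145 CPM in input. CELF2 RIP overlapped input and lay below IgG RIP, and its -0.69 ± 0.16 relative to IgG RIP on the log2 scale (FDR = 0.004) was under the 2-fold limit, which it passed with total counts (-1.05). *Sdhd*, the second anchor subunit, was at 27.0, 15.6 and 18.1 CPM in CELF2 RIP, 15.1, 17.3 and 25.7 CPM in IgG RIP and 46.6, 47.3 and 47.8 CPM in input. Both RIPs were lower than input, at -1.22 ± 0.24 and -1.29 ± 0.24 on the log2 scale, and they overlapped each other. The anchors *Sdhc* and *Sdhd*, which together hold the heme and the quinone site, thus stood at 1.36 and 0.06 relative to IgG RIP on the log2 scale. The difference between them was not tested.

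Complex III, the cytochrome bc1 complex, had 7 of 9 subunits lower in CELF2 RIP than in both controls and a median log2 value of -1.67 relative to IgG RIP. The lowest was *Uqcr10* (chr11:4701968-4704344), one of its small subunits without a cofactor. It was at 0.640, 0.770 and 0.625 CPM in CELF2 RIP, 8.57, 9.12 and 3.94 CPM in IgG RIP and 31.0, 30.2 and 27.7 CPM in input. The 3 groups stood in that order without overlap, and the log2 fold change was -3.39 ± 0.35 over IgG RIP (FDR = 2.91e-05) and -5.44 ± 0.34 over input. Of the 5 small subunits, *Uqcrb*, *Uqcrq*, *Uqcr10* and *Uqcr11* were lower than both controls, and *Uqcrh*, the hinge protein, was lower than input but not called against IgG RIP.

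The larger subunits of complex III fell into both directions. *Uqcrc1*, a core protein and the member of this complex with the most counts (not corrected for length), was at 50.2, 40.9 and 39.2 CPM in CELF2 RIP, 126, 133 and 154 CPM in IgG RIP and 153, 149 and 156 CPM in input. It was lower than both controls, with -1.67 ± 0.13 over IgG RIP (FDR = 9.01e-06), while the controls differed by -0.15 ± 0.12. *Cyc1*, which carries the heme of cytochrome c1, was lower than both controls in the same manner (-1.59 ± 0.22 over IgG RIP and -1.48 ± 0.22 over input). *Uqcrfs1* (chr13:30540312-30545316), the Rieske iron-sulfur protein, was at 83.4, 83.6 and 71.0 CPM in CELF2 RIP, 29.8, 33.1 and 39.2 CPM in IgG RIP and 51.1, 48.9 and 46.2 CPM in input. Each CELF2 RIP library lay above all 6 controls, and *Uqcrfs1* was called higher than IgG RIP (1.22 ± 0.13, FDR = 4.35e-05), while its 0.70 ± 0.13 over input (FDR = 0.00102) was under 2-fold.

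Complex IV, cytochrome c oxidase, had the lowest summed level relative to the controls. Its 14 tested subunits together held 154 ± 25.1 CPM in CELF2 RIP, 424 ± 58.2 in IgG RIP and 1008 ± 17.3 in input, so that CELF2 RIP kept 36.5% of the IgG RIP level and 15.3% of the input level. The corresponding shares were 77.5% and 46.2% for complex I, 83.9% and 76.4% for complex II, 49.1% and 34.3% for complex III and 65.4% and 44.7% for complex V, given as a description. They depend on the scaling. CELF2 and IgG RIP overlapped in CPM for complex I (561 to 745 against 722 to 928) and complex II (189 to 256 against 233 to 296). As shares of coding counts they did not (0.0433% to 0.0654% against 0.0771% to 0.0974%, and 0.0146% to 0.0225% against 0.0248% to 0.0311%). In complex IV, edgeR called 9 subunits lower than IgG RIP and 12 lower than input. It called 0 higher than either control, as did DESeq2, and 0 were higher at an unadjusted p under 0.05. Those lower than both, beside the ones described next, were the nuclear-encoded *Cox5a* (-1.92 relative to IgG RIP) and *Cox5b* (-2.08), which sit beside the catalytic core, and the small subunits *Cox6c* (-1.98) and *Cox7b* (-2.10).

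*Cox7c* (chr13:86044798-86046795), a small accessory subunit, was the lowest of complex IV. Its level was 1.60, 2.46 and 1.16 CPM in CELF2 RIP, 17.0, 23.7 and 18.7 CPM in IgG RIP and 56.3, 60.6 and 56.8 CPM in input. The separation was complete: *Cox7c* was 11.2-fold lower than IgG RIP (-3.49 ± 0.25 on the log2 scale, FDR = 7.76e-06) and 32.9-fold lower than input (-5.04 ± 0.25). At the other end stood *Cox8a*, the ubiquitous form of the smallest subunit, at 39.7, 42.1 and 32.4 CPM in CELF2 RIP, 25.6, 29.1 and 37.6 CPM in IgG RIP and 83.6, 76.1 and 82.2 CPM in input. Both RIPs lay below input, and they overlapped each other (0.31 ± 0.16 over IgG RIP, FDR = 0.133). The call of *Cox8a* against input (-1.08) was lost without CELF2 RIP replicate 3 (-0.98).

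Several subunits of complex IV exist as a widespread form and a form of muscle, lung or testis. *Cox4i1*, the widespread form of subunit 4 and a regulatory site for ATP, was at 38.3, 28.7 and 29.9 CPM in CELF2 RIP, 130, 156 and 183 CPM in IgG RIP and 282, 284 and 270 CPM in input. The groups did not overlap, and the log2 fold change over IgG RIP was -2.28 ± 0.16 (FDR = 7.76e-06). *Cox4i2*, the lung form that responds to low oxygen, was at 1.28, 1.62 and 0.714 CPM in CELF2 RIP, 3.00, 1.88 and 2.44 CPM in IgG RIP and 1.97, 2.05 and 2.30 CPM in input, and was not called (-1.02 ± 0.37 over IgG RIP, FDR = 0.0374). With total counts it was called lower than IgG RIP (-1.39). The value also depends on which transcript is counted: the curated row of *Cox4i2* had 0.372, 0 and 0 counts in CELF2 RIP. In IgG RIP it had 8.51, 4.91 and 15.6 counts, and the input libraries had 95.6, 151 and 99.6. The rest lay on a predicted transcript, and with curated rows alone *Cox4i2* was called lower than both controls.

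The other pairs of forms were as uneven in their counts. *Cox6a1*, the widespread form of subunit 6a, was at 11.4, 8.16 and 8.48 CPM in CELF2 RIP, 39.7, 37.2 and 36.9 CPM in IgG RIP and 118, 106 and 114 CPM in input, and was lower than both controls (-2.02 ± 0.15 over IgG RIP, FDR = 8.21e-06). Its muscle form *Cox6a2*, like the muscle form *Cox8b* of subunit 8, was under the filter. *Cox7a2*, at 8.05 ± 3.14, 20.5 ± 1.98 and 65.7 ± 5.36 CPM (mean ± SD, n = 3) in CELF2 RIP, IgG RIP and input, was also lower than both. *Cox7a1*, its muscle form, had 2 counts in each CELF2 RIP library, and at a floor of 3 counts per library its mean level was at least 2.12-fold higher in IgG RIP and at least 2.14-fold higher in input, without a call. With total counts *Cox7a1* was called lower than both controls, and against input also with upper quartile factors or without IgG RIP replicate 3.

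*Cox6b1*, which faces the intermembrane space, was lower than input in both RIPs and reached -0.77 ± 0.20 over IgG RIP (FDR = 0.0081), under the 2-fold limit, which it passed with total counts (-1.13) and upper quartile factors (-1.03). *Cox6b2*, the testis form, had 1, 2 and 1 counts in CELF2 RIP, so that by the same floor its mean was at least 3.92-fold higher in IgG RIP and at least 6.79-fold higher in input. It was called lower than both, but with curated rows alone against neither. *Cox7a2l*, a factor that joins complexes III and IV into supercomplexes, was called lower than input but not lower than IgG RIP.

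**Figure D3:**
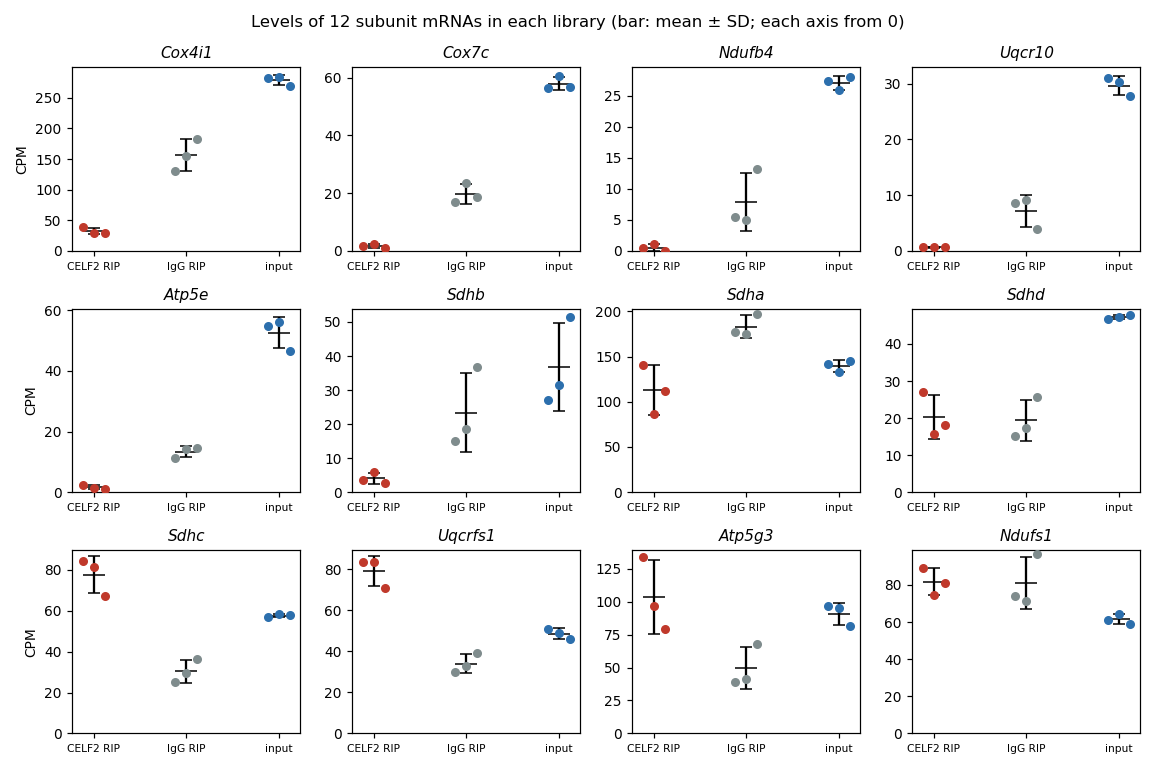
CPM of 12 subunit mRNAs in each CELF2 RIP, IgG RIP and input library, one panel per gene with a linear axis from 0; points are libraries and bars are mean ± SD. *Cox4i1*, *Cox7c*, *Ndufb4*, *Uqcr10*, *Atp5e* and *Sdhb* lie lowest in CELF2 RIP, *Sdhc* and *Uqcrfs1* lie highest there, and in *Ndufs1* and *Sdhd* the CELF2 and IgG RIP libraries overlap.

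Complex V, the ATP synthase, had 12 of 17 subunits lower in CELF2 RIP than in both controls and a median log2 value of -1.33 relative to IgG RIP. In the catalytic head, the small subunits were called lower than both controls and the large ones were not. The difference between them was not tested. *Atp5e* (chr2:174461075-174464101), the epsilon subunit of the central stalk, was at 2.40, 1.54 and 1.16 CPM in CELF2 RIP, 11.3, 14.2 and 14.7 CPM in IgG RIP and 54.9, 56.0 and 46.6 CPM in input. The 3 groups were apart, and *Atp5e* was 7.81-fold lower than IgG RIP (-2.97 ± 0.24 on the log2 scale, FDR = 1.15e-05) and 30.6-fold lower than input (-4.94 ± 0.25). *Atp5d*, the delta subunit beside it, was also lower than both controls (-2.15 over IgG RIP).

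*Atp5b*, the catalytic beta subunit and the member with the most counts in input (not corrected for length), was at 451, 253 and 267 CPM in CELF2 RIP, 511, 587 and 709 CPM in IgG RIP and 729, 699 and 725 CPM in input. Its CELF2 RIP libraries lay below all controls. *Atp5b* was called lower than input (-1.15 ± 0.21, FDR = 0.000938) but not lower than IgG RIP, where the change of -0.90 ± 0.21 (FDR = 0.00452) was under the limit. Both depended on the libraries and the setting: against IgG RIP it was called with total counts (-1.25), upper quartile factors (-1.16), curated rows (-1.05), without IgG RIP replicate 1 (-1.01) and without CELF2 RIP replicate 1 (-1.21), and against input its call was lost without CELF2 RIP replicate 2 (-0.999) and in the test against 2-fold. *Atp5a1*, the alpha subunit that alternates with it in the head, was at 493, 304 and 352 CPM in CELF2 RIP, 409, 429 and 575 CPM in IgG RIP and 537, 510 and 564 CPM in input. CELF2 RIP overlapped IgG RIP and lay below input, IgG RIP overlapped input, and *Atp5a1* was not called in any comparison (-0.30 ± 0.19 over IgG RIP, FDR = 0.2). *Atp5c1*, the gamma subunit that turns inside the head, was lower than input only.

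The 4 genes of the peripheral stalk, which keeps the head from turning, were all lower than both controls: *Atp5pb*, *Atp5h*, *Atp5j* and *Atp5o*, at -1.08, -1.38, -1.19 and -2.21 relative to IgG RIP on the log2 scale. So were all 5 tested genes of the small accessory subunits in the membrane, *Atp5j2*, *Atp5k*, *Atp5l*, *Atp5md* and *Atp5mpl*, between -2.52 and -1.33.

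The proton-carrying c subunit of the ATP synthase is encoded by 3 genes whose mature proteins are the same, since the genes differ in the import sequence that is cut off. Their mRNAs did not share a direction. *Atp5g1* was at 6.88, 8.32 and 5.98 CPM in CELF2 RIP, 15.6, 16.4 and 20.3 CPM in IgG RIP and 59.5, 58.5 and 62.0 CPM in input, and was lower than both controls (-1.30 ± 0.17 over IgG RIP, FDR = 0.000102). *Atp5g2* was at 49.5, 60.3 and 45.3 CPM in CELF2 RIP, 24.8, 28.3 and 24.9 CPM in IgG RIP and 67.4, 64.4 and 69.3 CPM in input. It lay above IgG RIP and below input in every library, and its 0.99 ± 0.13 over IgG RIP (FDR = 0.000151) was just under 2-fold.

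*Atp5g3* (chr2:73908447-73912464) was at 134, 96.4 and 79.4 CPM in CELF2 RIP, 39.3, 41.3 and 67.9 CPM in IgG RIP and 96.5, 94.8 and 81.3 CPM in input. It was called higher than IgG RIP (1.06 ± 0.24, FDR = 0.00366) and overlapped input (0.19 ± 0.23, FDR = 0.516). The call of *Atp5g3* was lost without IgG RIP replicate 1 or 2, input replicate 2 or CELF2 RIP replicate 1, and held in 5 of 9 fits that each left out 1 library, whereas *Sdhc* and *Uqcrfs1* kept theirs in 9 of 9. DESeq2 called *Sdhc* and *Uqcrfs1* and not *Atp5g3* (0.99), and with libraries scaled by total counts alone none of the 3 reached 2-fold (0.99, 0.85 and 0.71 for *Sdhc*, *Uqcrfs1* and *Atp5g3*, still above 0). *Atp5g2*, not called in the full data, was called in 5 of the 9.

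Where a member has several transcript rows, the estimated counts also give the share of each transcript. The examples were chosen after the values were seen, and such shares depend on how the authors' program splits reads among similar transcripts. Of the members in the table, 64 had 1 row and 23 had 2 or more, and 14 of the latter had at least 50 counts in every library. Among these 14, CELF2 RIP lay apart from both controls only for rows of *Atp5h* and *Cox4i1* and a noncoding row of *Ndufa7*. How often this occurs over all genes was not counted. For *Atp5h*, the predicted transcript XM_006534254.1 held 61.7 ± 2.67% of the gene's counts in CELF2 RIP, 41 ± 5.87% in IgG RIP and 28.4 ± 0.633% in input (mean ± SD, n = 3), with no overlap among the 3 groups. For *Cox4i1*, NM_009941.3 held 62.3 ± 8.11% in CELF2 RIP against 33.3 ± 7.84% in IgG RIP and 36.1 ± 7.62% in input, the RIP with the antibody lying apart from both controls. Other genes gave no stable share: the 2 rows of *Atp5g1* exchanged nearly all of its counts between replicates of one condition.

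Genes that build or serve the complexes were listed apart from the subunits. Of 57 assembly factors tested, 13 (22.8%) were lower than both controls, a call made for 9.52% of all genes. In the other direction, 2 (3.51%) were higher than both, a call made for 7.58% of all genes. The median log2 fold change of the 57 over IgG RIP was -0.39. Those higher than both were *Coa5*, a factor for complex IV, and *Cox15*, which makes heme a for the same complex. *Coa5* was at 106, 143 and 113 CPM in CELF2 RIP, 25.4, 30.6 and 38.6 CPM in IgG RIP and 44.9, 44.8 and 45.4 CPM in input, and *Cox15* averaged 53.7, 21.0 and 25.5 CPM. Both stood above every control library. *Sdhaf4*, which assists the flavoprotein of complex II, and *Tmem186*, a complex I factor, were higher than IgG RIP only, by 2.03 and 1.32 on the log2 scale. The cytochrome c gene *Cycs* was at -1.60 relative to IgG RIP. Among the 9 tested genes of cytochrome c and other electron entries, 4 were lower than IgG RIP (13.5% of all genes) and 0 higher (13.4%). DESeq2 gave the same counts, and 2 of the 9 were higher at an unadjusted p under 0.05.

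Of the 3 carriers that exchange ATP, ADP and phosphate, *Slc25a5* was lower than IgG RIP (-2.25), while *Slc25a4* was lower than input (-1.51) and *Slc25a3* was not called. The 13 regulators of mitochondrial biogenesis, transcription factors and coactivators of these genes, gave 0 calls in CELF2 RIP against IgG RIP in either direction by edgeR and by DESeq2. At an unadjusted p under 0.05, 6 of them were higher and 1 was lower, while full calls were made for 13.4% and 13.5% of all genes. Against input, 4 of the 13 were higher, where 14.6% of all genes were: *Ppargc1a* (1.17), *Ppargc1b* (1.35), *Gabpb2* (1.18) and *Nrf1* (1.22). In IgG RIP over input, 2 of the 13 were also called higher (6.79% of all genes), and 10 had a log2 value above 0.

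Other groups of genes for energy and translation are set beside the subunits as a description, from the same fit. Over all tested genes, 13.5% were lower and 13.4% higher than IgG RIP. Of 36 genes of glycolysis and the citric acid cycle, 12 were lower and 2 higher than IgG RIP, with a median of -0.61. Of 78 mitochondrial ribosomal proteins, 31 were lower and 1 higher, with a median of -0.93. Cytoplasmic ribosomal proteins had 71 of 81 lower and 2 higher, with a median of -2.16. The subunits, at 54 of 83 and -1.59, had values between those of the 2 classes of ribosomal proteins. No test of one list against another was made.

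**Figure D4:**
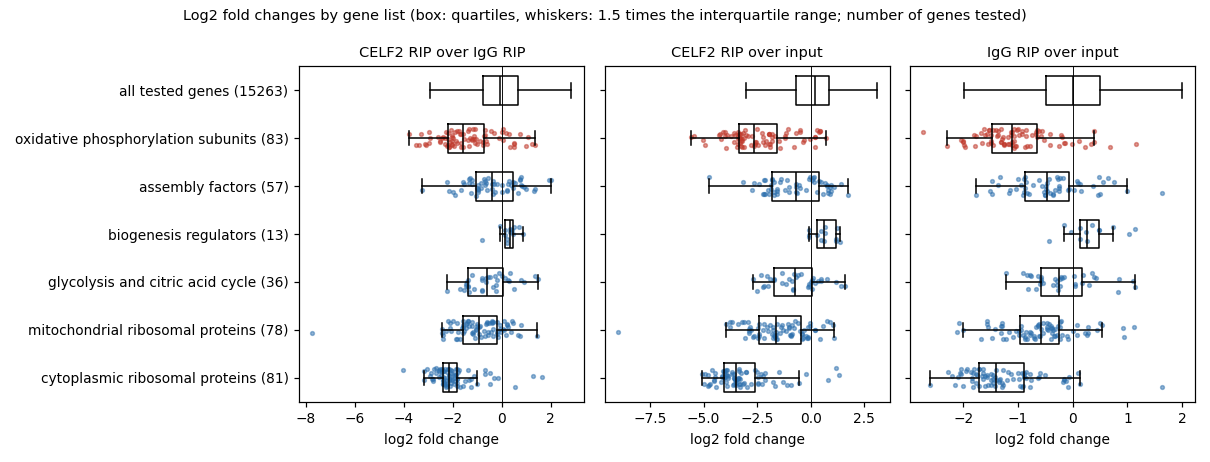
Log2 fold changes in the 3 comparisons for all tested genes and for 6 gene lists (points are genes, boxes are quartiles, whiskers reach 1.5 times the interquartile range, the number tested is in brackets). In CELF2 RIP over IgG RIP the subunits had a median of -1.59, between -2.16 for cytoplasmic and -0.93 for mitochondrial ribosomal proteins, with all genes at -0.06.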

How the data were processed

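RNA was measured in 3 CELF2 RIP (anti-CELF2 in KI cortex), 3 IgG RIP and 3 input libraries. The sources used here describe rRNA depletion, directional libraries, FastQC 0.11.9, fastp 0.23.4, Ribodetector 0.3.1 and, with build mm10, kallisto 0.51.1. The authors deposited estimated counts per transcript, raw, with 1 column per library and 0 columns unused. The rows carry RefSeq accessions, although the paper names an Ensembl transcriptome. Of 107384 rows, 86714 matched a RefSeq gene table (GRCm38.p6), which also gave gene spans and symbols.

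Counts were summed per gene and rounded. The test covered protein-coding genes at 0.5 CPM or more in 3 or more libraries, with edgeR 4.0.16 (R 4.3.3, limma 3.58.1): TMM scaling, quasi-likelihood test, a mean per condition, all 9 libraries in 1 fit. CPM are on the TMM-scaled library size and are not corrected for transcript length, so levels are compared between conditions and not between genes. The common biological coefficient of variation was 0.221. Alternatives were other scalings, no filter, DESeq2 1.42.0, a test against 2-fold, curated transcripts only, a replicate block and leaving out each library. Replicates were not copies of 1 library: their chi-square per gene was 12.2 to 46.0. The steps were checked on simulated data. Intervals and floors cover counting error and library spread only, and reads have no molecular identifiers.

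Across 11532 genes, deviations of same-numbered libraries correlated by 0.185, 0.122 and 0.212 between CELF2 RIP and input. The values were -0.0702, 0.0390 and -0.0092 between CELF2 RIP and IgG RIP. Between IgG RIP and input they were 0.0855, 0.0635 and 0.0063. Libraries of different numbers were not compared, so these values do not settle whether the numbers pair any of the groups. The paper's methods describe input and both RIPs from the same cytoplasmic fraction. Members named with values are the highest, the lowest and the most counted of each complex, those called in the rarer direction, the pairs of tissue forms, the c-subunit genes and complex II. *Ndufa13*, *Ndufv2*, *Cyc1* and other members named beyond these were chosen after their values were seen. One member is counted in the totals but not reported here by name. The members and lists were chosen with earlier results of these data known.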

Additional observations from a re-analysis of the deposited data

How the results depend on the processing

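Of the 53 members lower than both controls, 45 kept that call under every other setting apart from the test against 2-fold, under which 36 of the 53 remained. The other 8 (*Atp5md*, *Atp5pb*, *Cox6b2*, *Ndufa4*, *Ndufa5*, *Ndufa7*, *Ndufs6* and *Uqcrc2*) lost it under at least 1 other setting. Leaving out 1 library gave 48 to 56 members lower than both.

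The replicate block gave 51 members lower than both, 51 lower and 2 higher than IgG RIP, 64 lower than input, and 43 lower in IgG RIP than in input. It ended the call of *Atp5g3* (1.05), left 51 of the 53 members with their call against both controls, and moved none of these counts by over 1.5 times.

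Scaling moved the level of all genes. By total counts alone the median over all tested genes was -0.42 relative to IgG RIP and -0.27 relative to input, and the members' medians were -1.95 and -3.11. Upper quartile factors gave medians of -0.32 and -0.045 over all genes, and size factors -0.12 and 0.054, where TMM gave -0.056 and 0.19. Of all calls against IgG RIP, 49.8% were higher with TMM, 28.7% with upper quartile factors and 21.5% with total counts. Against input the share was 48.5% with TMM, 36.6% with DESeq2's size factors, 28.4% with upper quartile factors and 12.9% with total counts, and in IgG RIP against input it was 57.6% with TMM and 46.5% with total counts. Members higher than IgG RIP numbered 0 with total counts, 1 with upper quartile factors and 0 in the test against 2-fold, which also gave 4 members lower in IgG RIP than in input. Curated transcripts alone gave 27 in that comparison. Leaving out 1 library gave 36 to 52 there, and 2 to 4 members higher than IgG RIP, the 2 without input replicate 2.

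For the 82 assembly factors, carriers and regulators together, total counts gave 31 lower and 2 higher than IgG RIP and 0 higher than input, and upper quartile factors 2 higher than input. The test against 2-fold gave 6 lower and 2 higher than IgG RIP, 17 lower and 0 higher than input, and 0 in either direction in IgG RIP against input. In this last comparison DESeq2 gave 11 lower, curated transcripts 4 lower and 1 higher, and leaving out 1 library 3 to 12 lower and 1 to 4 higher, where 7 and 3 were called in the full data. The 3 came without input replicate 1 or 2, the 12 without IgG RIP replicate 3, and the 1 without input replicate 1 or 3 or IgG RIP replicate 2.

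The reversals were of uncalled values, which in the full data ran from 0.016 (*Ndufs1* over IgG RIP) to 0.43 (*Sdhc* over input). Relative to IgG RIP, *Ndufs1*, *Ndufv1* and *Sdhd* were at -0.0514, -0.0092 and -0.0021 with size factors, -0.35, -0.30 and -0.29 with total counts, and -0.25, -0.21 and -0.20 with upper quartile factors. They were at -0.0726, -0.0311 and -0.0221 without the filter, -0.0517, -0.0092 and -0.0020 with DESeq2, and -0.36, -0.0945 and -0.0825 with curated transcripts. With 1 library left out they ranged from -0.087 to 0.16, from -0.085 to 0.17 and from -0.20 to 0.32. *Cox8a* was at -0.061 with total counts. Relative to input, total counts put *Atp5g3* at -0.27, *Ndufa9* at -0.17, *Ndufc2* at -0.27, *Ndufs1* at -0.045, *Ndufv1* at -0.067 and *Sdhc* at -0.031. Upper quartile factors put *Atp5g3* at -0.0510 and *Ndufc2* at -0.0568, and with 1 library left out *Atp5g3* ranged from -0.048, without CELF2 RIP replicate 1, to 0.34. The cause of these changes was not tested. Depth limits the members with few counts in CELF2 RIP, such as *Cox6b2*, *Cox7a1* and *Ndufab1*.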
